A study of Mus musculus with 12 samples.

Results

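The Rab GTPases are the largest family of small GTP-binding proteins and direct membrane traffic in every cell. They were taken from the array table as the genes whose symbol begins with Rab and a digit, among probe sets that carry 1 symbol. Of 72 such symbols, 9 name interacting proteins, 2 are subunits of a GTPase-activating protein and 2 are RNAs of the opposite strand, and these were left out. Of the remaining 59 Rab genes, 49 had a probe set with a mean log2 intensity of at least 5 over the 12 arrays, and each of the 49 was followed through its probe set with the highest mean. The 10 genes below that limit were Rab17, Rab19, Rab20, Rab25, Rab32, Rab37, Rab39, Rab42, Rab43 and Rab44. Rab29, with a mean log2 of 5.00, was just inside the limit, and Rab43, at 4.93, just outside. The limit was set on the mean of all arrays, so it did not use differences between time points.

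The samples were prefrontal cortex from wild-type C57BL/6J mice, obtained at 10 weeks of age and kept on a cycle of 12 hours of light and 12 hours of dark, with lights on at ZT0. Each array, an Affymetrix Mouse430_v2 chip, took total RNA of 1 mouse. The light phase was sampled by 3 mice at ZT3 and 3 at ZT9, and the dark phase by 3 at ZT15 and 3 at ZT21. The sex of the mice is not given in the sources used here, and there was no other treatment or genotype. The methods give a morning hour for lights on. A later sentence there names a morning and an evening hour and does not say whether mice were split between them. Sampling covered 1 day, so time of day, time in the light cycle and sleep cannot be told apart.

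Per the study's methods, the dissected tissue was the anterior cortex without the olfactory bulb and without subcortical structures. All 7 neuronal markers and all 5 cortical excitatory markers on the array with 1 symbol were among the probe sets tested, and 1 of 5 olfactory bulb markers was. So were all 5 striatal markers with 1 symbol. Their summed intensity was 1055 to 1364 at ZT3, 1256 to 2020 at ZT9, 1186 to 1449 at ZT15 and 1129 to 1462 at ZT21. Choroid plexus RNA was uneven. Ttr, its main transcript, read 9.22 to 10.94 at ZT3 on the log2 scale but 14.82 in ZT9 replicate 3, 14.18 in ZT15 replicate 1 and 12.40 in ZT21 replicate 3. The arrays also differed in brightness. Mean intensity was 398 and 394 in ZT9 replicates 1 and 2, 393 in ZT15 replicate 3 and 395 in ZT21 replicate 3, and 344 to 374 in the other 8 arrays. Since whole tissue was used, fewer cells of a type and less RNA per cell cannot be told apart.

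A Rab protein is a molecular switch. In its GTP-bound form it sits on a membrane by prenyl groups at its C terminus and recruits effectors such as tethers, motors and sorting proteins, and in its GDP-bound form it is held soluble by GDI. Exchange factors (GEFs) load it with GTP and GTPase-activating proteins (GAPs) turn it off, and different Rabs mark different membranes of the cell. In neurons the Rab3 proteins ride on synaptic vesicles, Rab5, Rab4 and Rab11 handle endocytosed receptors, and Rab7 marks the late endosomes that travel along axons.

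RefSeq promoter windows on GRCm38.p6, from 250 bases before to 50 bases after a gene's start, were matched to 40 of the 49 genes. The bases before the start are shown for Rab1b, Rab3b and Rab3c, which had an unadjusted p under 0.05 in the test over time, and for Rab5a, whose window held both a canonical E-box, the letters bound by CLOCK and BMAL1, and a cAMP response element. Each stretch is written 5′ to 3′ on the gene's own strand. Capitals mark GC boxes in Rab1b, a CCAAT box and a GC box in Rab3c, a TATA motif and GC boxes in Rab3b, and E-boxes and the cAMP response element in Rab5a.
Rab1b: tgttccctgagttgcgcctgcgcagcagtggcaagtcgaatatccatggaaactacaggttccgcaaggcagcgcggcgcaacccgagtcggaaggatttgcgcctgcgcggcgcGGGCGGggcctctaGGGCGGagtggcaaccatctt
Rab3b: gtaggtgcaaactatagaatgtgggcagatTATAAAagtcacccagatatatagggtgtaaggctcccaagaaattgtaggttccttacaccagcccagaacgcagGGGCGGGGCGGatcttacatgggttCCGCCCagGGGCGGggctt
Rab3c: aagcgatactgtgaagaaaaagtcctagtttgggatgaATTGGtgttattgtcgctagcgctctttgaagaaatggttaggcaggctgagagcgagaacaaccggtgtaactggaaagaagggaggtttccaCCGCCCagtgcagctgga
Rab5a: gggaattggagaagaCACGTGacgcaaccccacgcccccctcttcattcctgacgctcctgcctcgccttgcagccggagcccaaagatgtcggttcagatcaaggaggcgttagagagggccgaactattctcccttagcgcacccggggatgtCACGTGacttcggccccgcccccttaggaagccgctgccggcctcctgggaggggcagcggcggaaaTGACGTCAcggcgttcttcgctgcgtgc
The Rab1b stretch lies at chr19:5106997-5107146 on the minus strand and carries GC boxes that begin 35 and 21 bases before the start. Rab3b, at chr4:108878920-108879069 on the plus strand, has a TATA motif 120 bases and 4 GC boxes 44, 39, 19 and 11 bases before the start, the first pair of which share 1 base. Rab3c, at chr13:110280307-110280456 on the minus strand and ending further upstream than the other stretches, has a CCAAT box on the opposite strand at 212 and a GC box on the opposite strand at 118 bases. The RefSeq gene of Rab3c spans chr13:110054187-110280996. This stretch therefore lies inside the gene, and the start it is counted from is not the gene's 5′ end. In Rab5a, at chr17:53478984-53479233 on the plus strand, the E-boxes begin 235 and 95 bases and the cAMP response element 28 bases before the start.

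Both strands of the whole windows were searched for each motif, and none of the motifs contains another. GC boxes (GGGCGG) were in the windows of 32 of the 40 Rab genes (80.0%), compared with 49.2% of protein-coding genes and 38.2% of all genes in the table. The median GC content, taking the window richest in G and C for each gene, was 63.8% for the Rab genes and 57.3% for protein-coding genes. CCAAT was found in 23 of 40 (57.5%), against 42.3% of protein-coding genes, and TATAAA in 3 of 40, Rab39b, Rab3b and Rab7 (7.5%, against 14.8%). The E-box CACGTG was in 5 of 40 (12.5%, against 8.91%), namely Rab5a, Rab21, Rab23, Rab24 and Rab27a. The cAMP response element TGACGTCA was found only in Rab5a (2.5%, against 2.54%) and the D-box TTATGTAA only in Rab29 (2.5%, against 1.05%). These matches are letters in a window, and no binding was measured. The 5 genes with an E-box had adjusted p-values of 0.488 to 0.935 in the F-test of limma described next. Their ranges over the time points were 0.08 for Rab21 and Rab24, 0.09 for Rab5a, 0.16 for Rab23 and 0.34 for Rab27a. A link between the motif and these values was not tested.

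No Rab gene passed the test over the 4 time points. In the F-test of limma, adjusted over all probe sets tested, 0 of 49 were called at an adjusted p of 0.20, the false discovery rate the study used, where 1.93% of all probe sets were called. At an unadjusted p of 0.05, 7 of 49 Rab genes (14.3%) passed, against 15.5% of all probe sets. They were Rab1b, Rab30, Rab3b, Rab34, Rab3c, Rab33a and Rab18, with adjusted p-values of 0.251 to 0.315. Multiclass SAM, the kind of test the study used, was run anew and called 11 of 49 (22.4%) where it called 27.5% of all probe sets. That share was larger than in the study's own run, which used another filter. The count also moved when 1 array was left out, to 5 without ZT21 replicate 3 (11.7% of all probe sets), 2 without ZT9 replicate 3 (6.08%) or ZT15 replicate 3 (5.62%), and 1 without ZT9 replicate 1 (12.3%). Leaving out the 4 brightest arrays, a choice made after the data were seen, kept only replicate 3 at ZT9, so its calls are not given.

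The swing over the day was small. The range, from the lowest to the highest time-point mean, had a median of 0.22 on the log2 scale over the 49 genes and of 0.27 over all probe sets tested. It was under 0.25 in 30 genes (61.2%) and 0.5 or more in 4, Rab38 (0.77), Rab26 (0.63), Rab1b (0.60) and Rab33a (0.52), while 43.9% of all probe sets were under 0.25 and 14.7% reached 0.5. The smallest was that of Rab8a, which carries vesicles from the Golgi to the plasma membrane and cilium, at 0.03. The standard error of such a difference was 0.07 to 0.31, with a median of 0.12.

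**Figure D1:**
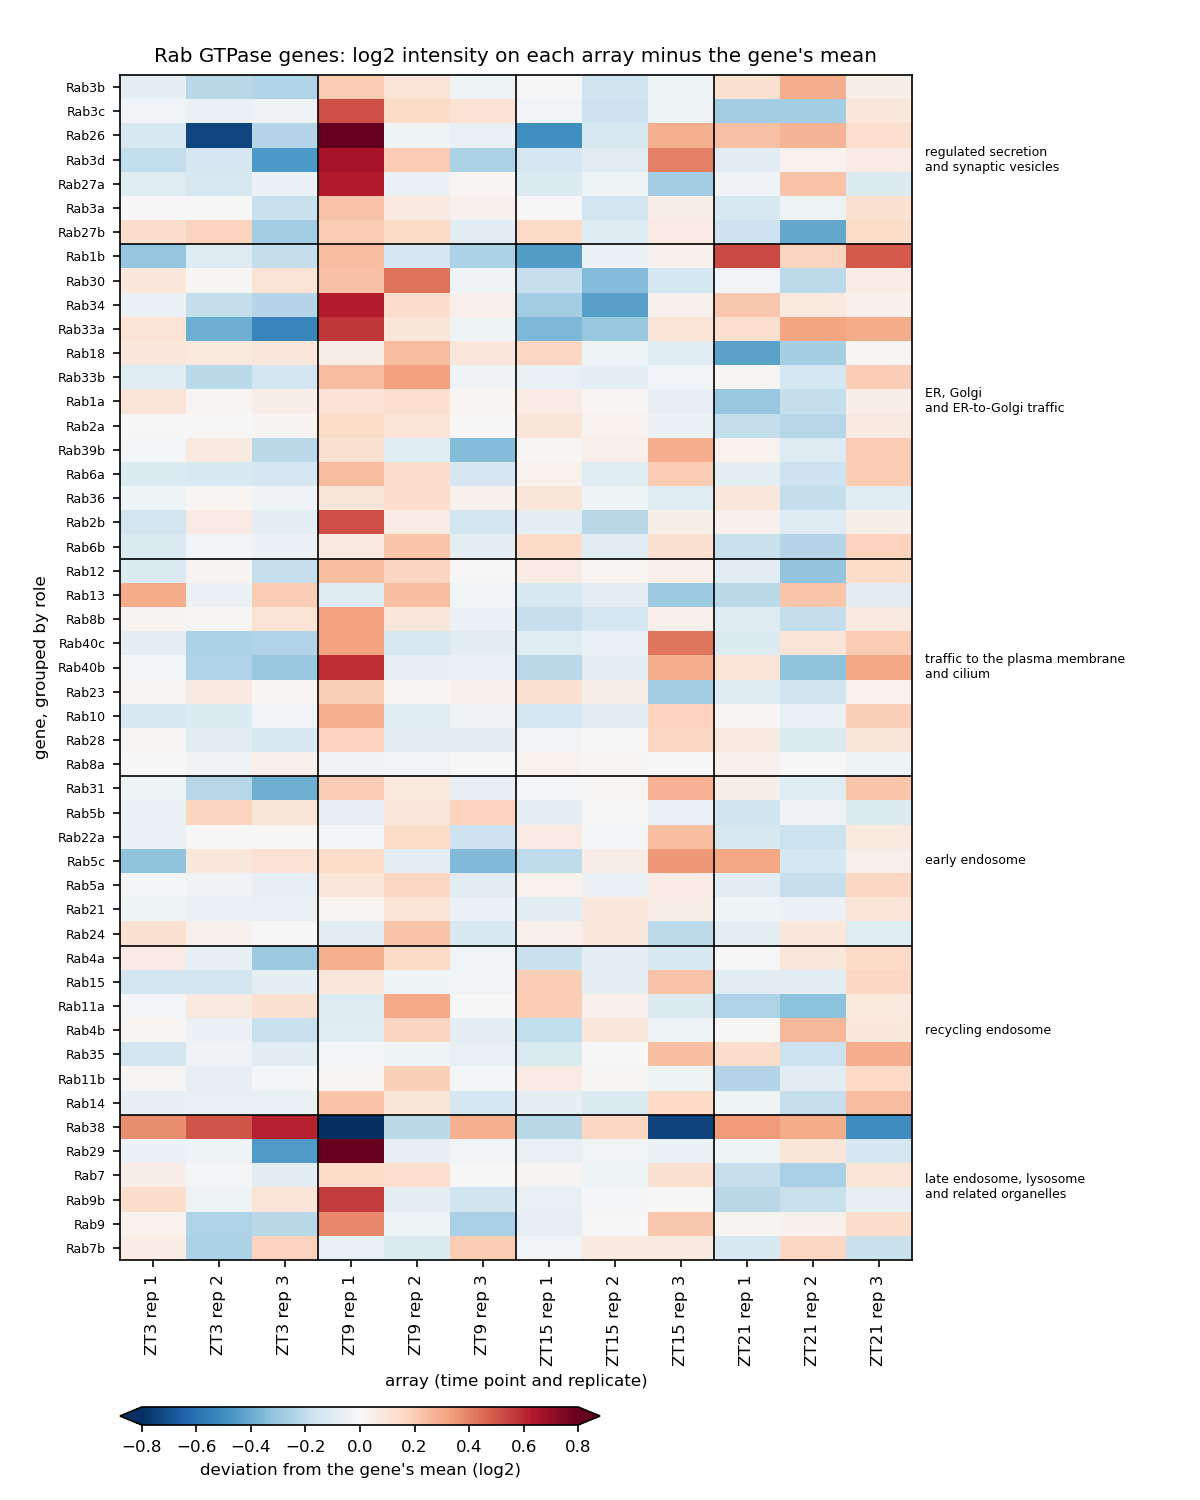
Log2 intensity of the 49 Rab genes (rows, grouped by role and ordered by p within a role) on each of the 12 arrays (columns), as the deviation from the gene's own mean over the arrays. Colours run from 0.8 below (blue) to 0.8 above (red). In both ZT9 replicate 1 and ZT21 replicate 3, 39 of 49 genes are above their own mean, by 0.21 and 0.08 when averaged over the 49, and Rab38 runs the other way, blue in ZT9 replicate 1 and ZT15 replicate 3.

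More Rab genes had their highest mean at ZT9, late in the light phase, than at any other time. The highest mean was at ZT9 in 30 of 49 genes (61.2%), at ZT15 in 8, at ZT21 in 7 and at ZT3 in 4, where 29.1% of all probe sets were highest at ZT9. The lowest mean was at ZT3 in 22 genes (44.9%, against 39.0% of all probe sets), at ZT21 in 15, at ZT15 in 8 and at ZT9 in 4. This count rested largely on 1 array. Averaged over the 49 genes, ZT9 replicate 1 was 0.21 above the genes' means and replicate 2 was 0.08 above, but replicate 3, the one with the most Ttr at ZT9, was 0.05 below. All probe sets tested averaged 0.07 and 0.06 above and 0.04 below in the same arrays. In ZT9 replicate 1, 22 of the 49 genes had their highest value of the 12 arrays. Without it 18 genes were highest at ZT9 (36.7%, against 28.1% of all probe sets), and without ZT9 replicate 3 there were 37. With quantile normalization, which gives all arrays 1 distribution, there were 15 (30.6%, against 20.7%). With arrays centred on their median the share was 63.3%, against 30.0% of all probe sets. Without the 4 brightest arrays 9 genes were highest at ZT9 (18.4%, against 22.5%), but only replicate 3 was then left at ZT9.

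**Figure D2:**
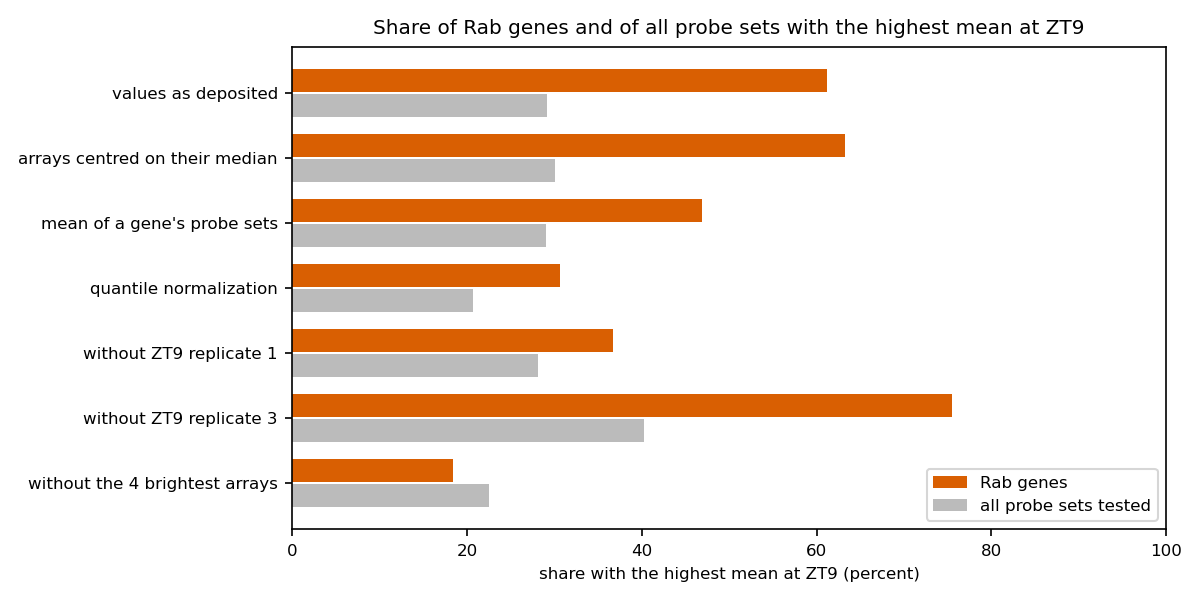
Share of the 49 Rab genes (orange) and of all probe sets tested (grey) whose highest time-point mean was at ZT9, in percent, for the values as deposited and for 6 alternatives. The Rab share is 61.2% as deposited, 63.3% with arrays centred on their median, 30.6% with quantile normalization and 36.7% without ZT9 replicate 1. It is 18.4% without the 4 brightest arrays, where only replicate 3 is left at ZT9.

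The genes of regulated secretion were 7, the Rab3 group of synaptic and secretory vesicles, Rab27a and Rab27b of secretory lysosomes and granules, and Rab26 of secretory granules. None passed the F-test, 2 had an unadjusted p under 0.05, 6 were highest at ZT9, and the median range of 0.34 was the highest of the 6 role groups. Rab3c, which tethers vesicles at release sites together with the other Rab3 proteins, read 11.65, 11.62 and 11.64 at ZT3, 12.19, 11.82 and 11.78 at ZT9, 11.65, 11.50 and 11.63 at ZT15 and 11.39, 11.40 and 11.76 at ZT21. All 3 ZT9 arrays stood above all 9 others, with ZT21 replicate 3 close below. ZT21 was lower than ZT9 by -0.41 (95% interval -0.70 to -0.13), with an adjusted p of 0.26 in limma and of 0.304 in the F-test. Its other probe sets of mean log2 at least 5 gave -0.27 and -0.21 for the same difference, the same direction and a smaller size.

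Rab3b read 8.98, 8.83 and 8.81 at ZT3, 9.26, 9.16 and 9.02 at ZT9, 9.05, 8.90 and 9.02 at ZT15 and 9.18, 9.34 and 9.11 at ZT21. The ZT3 arrays lay below all ZT9 and ZT21 arrays, and the last 2 groups overlapped, with a range of 0.33 (SE 0.10) and an adjusted p of 0.284. Rab26 read 6.93, 6.32 and 6.82 at ZT3, 7.95, 7.03 and 7.00 at ZT9, 6.57, 6.93 and 7.34 at ZT15 and 7.29, 7.33 and 7.19 at ZT21. Its ZT3 arrays were below every ZT9 and ZT21 array, but the ZT9 mean rested on the first array (range 0.63, SE 0.26, adjusted p 0.385). Rab3a, the main Rab of synaptic vesicles in the brain, ranged from 11.70 to 12.11 over the 12 arrays with means of 11.82, 11.99, 11.85 and 11.86 from ZT3 to ZT21 (adjusted p 0.606). Rab3d and Rab27a were carried by ZT9 replicate 1, at 6.69 and 6.50 against at most 6.44 and 6.09 on the other 11 arrays. Rab27b had a range of 0.23 and an adjusted p of 0.723.

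**Figure D3:**
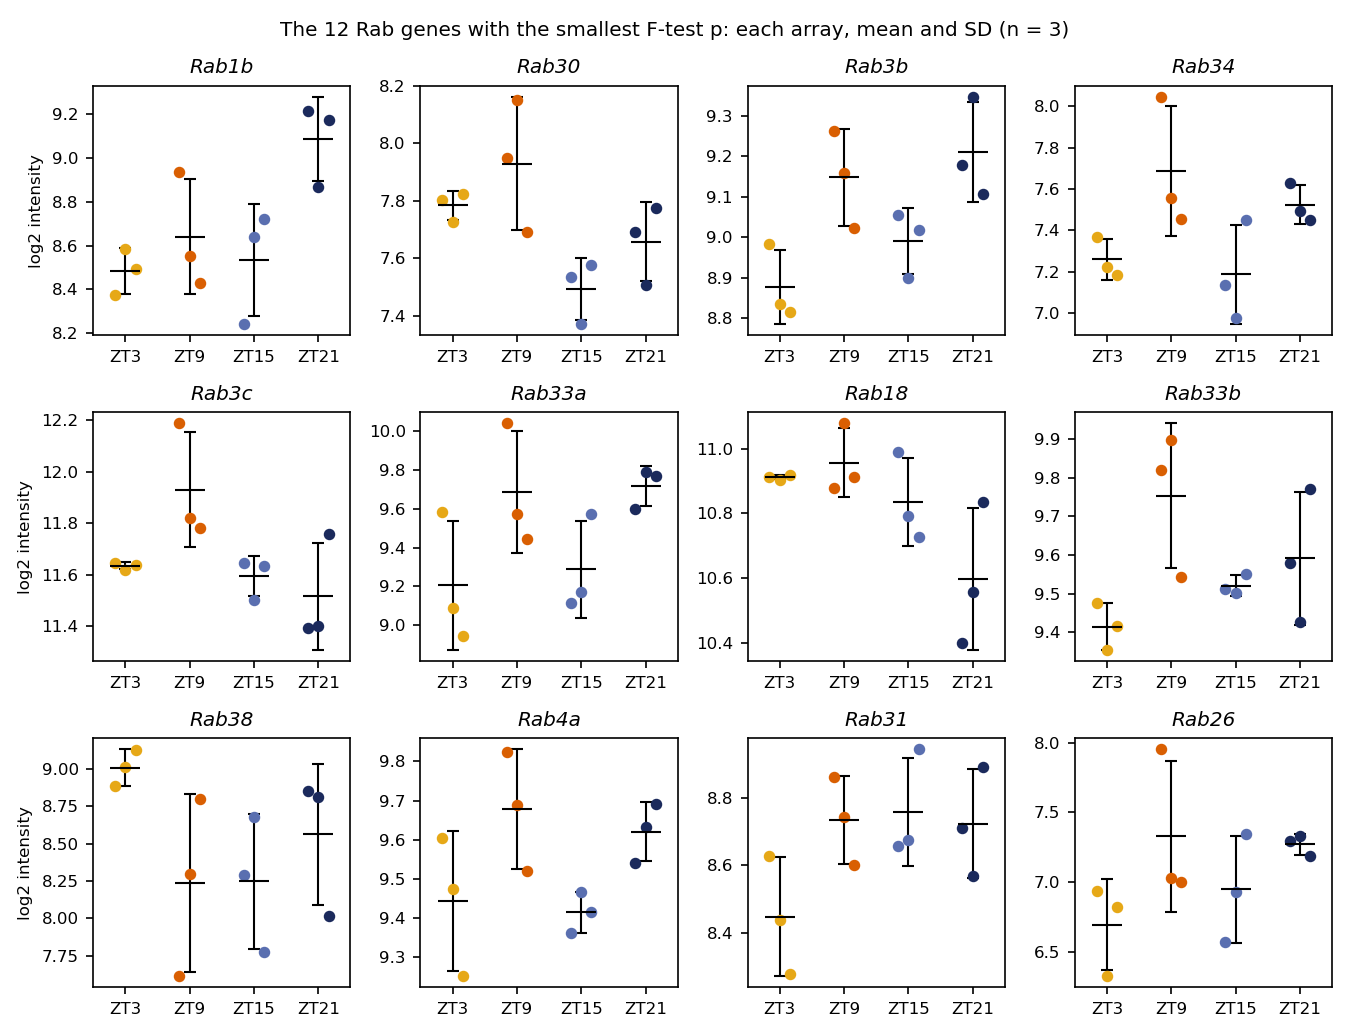
Log2 intensity of the 12 Rab genes with the smallest F-test p, by time point. Points are the 3 arrays of a time point in replicate order, bars are the mean and error bars the SD (n = 3). Rab1b is highest at ZT21, Rab3c at ZT9 and Rab18 lowest at ZT21, and in Rab26, Rab34 and Rab33a the first ZT9 array stands above the others of its group.

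The 13 genes of the endoplasmic reticulum and Golgi held 5 of the 7 with an unadjusted p under 0.05, and 10 of the 13 were highest at ZT9. Rab1b, which with Rab1a carries vesicles from the endoplasmic reticulum to the Golgi, had the smallest p of the family. It read 8.37, 8.58 and 8.49 at ZT3, 8.94, 8.55 and 8.43 at ZT9, 8.24, 8.64 and 8.72 at ZT15 and 9.22, 8.87 and 9.18 at ZT21. The ZT21 arrays were the highest but for ZT9 replicate 1, which passed the lowest of them. The ZT21 mean was 0.60 above the ZT3 mean (SE 0.16, 1.52-fold, adjusted p 0.251). Rab1b passed the 0.20 threshold under 8 of 25 alternatives, with adjusted p-values between 0.0126 and 0.52 over all 25. Among the 8 were quantile normalization (8.7% of all probe sets called), the 15000 brightest probe sets (8.87%), array weights (59.96%) and SAM (27.5%). With array weights and SAM set aside, Rab1b passed in 6. Other genes passed in several of the 25 too, Rab30 in 6 and Rab3c in 5. Rab1a, the close paralog of Rab1b, had its highest mean at ZT9 rather than ZT21. Its brightest probe set read 12.39, 12.31 and 12.34 at ZT3, 12.40, 12.42 and 12.30 at ZT9, 12.35, 12.30 and 12.23 at ZT15 and 11.99, 12.10 and 12.35 at ZT21, where ZT21 minus ZT9 was -0.23 (adjusted p 0.354). The second probe set of Rab1a had means of 10.21, 10.43, 10.41 and 10.34 from ZT3 to ZT21, lowest at ZT3 like Rab1b. Its ZT21 minus ZT9 was -0.08 (F-test adjusted p 0.606). The difference between the paralogs was not tested.

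Rab30, a Golgi Rab, read 7.80, 7.73 and 7.82 at ZT3, 7.95, 8.15 and 7.69 at ZT9, 7.54, 7.37 and 7.58 at ZT15 and 7.69, 7.51 and 7.77 at ZT21. Every ZT15 array was below every ZT3 and ZT9 array. The dark mean was -0.28 relative to the light mean (95% interval -0.47 to -0.09), with an adjusted p of 0.207 in limma. This was the smallest in any of the 3 contrasts among the brightest probe sets of the Rab genes. A dimmer probe set of Rab11b had 0.199 for dark minus light. A second probe set of Rab30, at a mean of 5.41, had a range of time-point means from 5.38 to 5.45. Rab18, found on the endoplasmic reticulum and lipid droplets, read 10.91, 10.90 and 10.92 at ZT3, 10.88, 11.08 and 10.91 at ZT9, 10.99, 10.79 and 10.73 at ZT15 and 10.40, 10.56 and 10.84 at ZT21. All ZT21 arrays were below all ZT3 and ZT9 arrays, with ZT21 minus ZT9 at -0.36 (95% interval -0.62 to -0.10, adjusted p 0.277). The second probe set of Rab18 gave -0.57 (F-test adjusted p 0.328).

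Rab34, which positions lysosomes and is needed for cilia, read 7.37, 7.22 and 7.18 at ZT3, 8.04, 7.55 and 7.46 at ZT9, 7.14, 6.98 and 7.45 at ZT15 and 7.63, 7.49 and 7.45 at ZT21. ZT9 and ZT21 were above ZT3 in every array (range 0.50, SE 0.16, adjusted p 0.292), and its second probe set had means of 6.98, 7.49, 7.14 and 7.49 in the same order of time (adjusted p 0.318). Rab33a, a Golgi Rab of neurons, read 9.58, 9.09 and 8.95 at ZT3, 10.04, 9.57 and 9.44 at ZT9, 9.12, 9.17 and 9.58 at ZT15 and 9.60, 9.79 and 9.77 at ZT21. Its ZT21 arrays were above all ZT3 and ZT15 arrays (range 0.52, SE 0.19, adjusted p 0.312). Rab33b, which binds the autophagy protein Atg16l1, read 9.47, 9.35 and 9.42 at ZT3, 9.82, 9.90 and 9.54 at ZT9, 9.51, 9.50 and 9.55 at ZT15 and 9.58, 9.43 and 9.77 at ZT21. Here ZT3 was below ZT9 and ZT15 in every array (range 0.34, SE 0.11, adjusted p 0.345). The other 6 genes of the group, Rab2a, Rab2b, Rab6a, Rab6b, Rab36 and Rab39b, had ranges of 0.15 to 0.22 and adjusted p-values of 0.537 to 0.705.

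Among the 9 genes of traffic to the plasma membrane and cilium, none had an unadjusted p under 0.05. The 3 with the smallest p were Rab12 (9.62 to 10.18 over the 12 arrays, adjusted p 0.487), Rab13 of cell junctions (5.74 to 6.33, adjusted p 0.487) and Rab8b (9.09 to 9.60, adjusted p 0.51). The role list placed Rab12 in this group, although it sends receptors to lysosomes. Rab10, which delivers membrane to the growing axon and the glucose transporter to the cell surface, had a range of 0.14 and an adjusted p of 0.79. Rab40c and Rab40b, which carry a SOCS box and join ubiquitin ligases, had ranges of 0.28 and 0.34, and Rab23 and Rab28, both of cilia, 0.16 and 0.12.

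The 7 early endosome genes were the flattest group, with a median range of 0.16. Rab5a, Rab5b and Rab5c, which drive fusion of early endosomes, had ranges of 0.09, 0.18 and 0.16 and adjusted p-values of 0.881, 0.496 and 0.862. Rab31, which links the Golgi and endosomes, had the smallest p of the group and read 8.63, 8.44 and 8.28 at ZT3, 8.86, 8.74 and 8.60 at ZT9, 8.66, 8.67 and 8.95 at ZT15 and 8.71, 8.57 and 8.89 at ZT21. Its ZT15 arrays were above its ZT3 arrays, by 0.31 (95% interval 0.03 to 0.59, adjusted p 0.359), but the second probe set gave -0.15. Rab21, Rab22a and Rab24 had ranges of 0.08, 0.17 and 0.08.

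In the 7 recycling endosome genes the ranges ran from 0.12 to 0.26. Rab4a, which returns receptors quickly to the surface, read 9.61, 9.47 and 9.25 at ZT3, 9.82, 9.69 and 9.52 at ZT9, 9.36, 9.47 and 9.41 at ZT15 and 9.54, 9.63 and 9.69 at ZT21. ZT9 lay above ZT15 in every array (range 0.26, SE 0.11, adjusted p 0.372), and its second probe set, 8.61, 9.00, 8.69 and 8.70 from ZT3 to ZT21, had an adjusted p of 0.294. Rab11a, which moves AMPA receptors into spines from recycling endosomes, ranged from 10.47 to 11.11 and Rab15 from 10.39 to 10.77, with adjusted p-values of 0.571 and 0.492. Rab4b, Rab11b, Rab14 and Rab35 had adjusted p-values of 0.62 to 0.904.

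The 6 late endosome and lysosome genes held the largest range of the family, that of Rab38, a Rab of lysosome-related organelles. It read 8.89, 9.02 and 9.13 at ZT3, 7.61, 8.30 and 8.80 at ZT9, 8.29, 8.68 and 7.78 at ZT15 and 8.85, 8.81 and 8.02 at ZT21. The highest and the lowest array of a group were 1.19 apart at ZT9, 0.90 at ZT15 and 0.84 at ZT21, more than in any other Rab gene at these times, and the lowest array of each of these groups was 1 of the 4 brightest. ZT15 minus ZT3 was -0.76 (95% interval -1.44 to -0.08, adjusted p 0.349). This probe set belongs to the kind whose probes may match other transcripts, and the other Rab38 probe set had means of 5.50, 5.51, 5.29 and 5.30 from ZT3 to ZT21. Rab7, which marks late endosomes and their transport in axons, ranged from 11.58 to 11.99 (adjusted p 0.559). Rab29, a partner of the kinase Lrrk2, read 5.83 in ZT9 replicate 1 and 4.55 to 5.10 on the other 11 arrays. Rab7b, Rab9 and Rab9b had adjusted p-values of 0.606 to 0.965.

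Between time points 12 hours apart, and between dark and light, no Rab gene passed an adjusted p of 0.05 in limma. For dark against light this was 0 of 49 where 0.0937% of all probe sets were called, for ZT15 against ZT3 0 of 49 against 0.22%, and for ZT21 against ZT9 0 of 49 against 0.00407%. At an unadjusted p of 0.05, 3 Rab genes were lower in the dark, Rab30, Rab3c and Rab18 (6.12%, against 6.58% of all probe sets), and 0 were higher (8.76%). From ZT3 to ZT15, 2 were higher, Rab31 and Rab15 (4.08%, against 9.85%), and 3 lower, Rab38, Rab30 and Rab13 (6.12%, against 2.68%). At ZT21 against ZT9, 4 were lower, Rab3c, Rab18, Rab1a and Rab30 (8.16%, against 9.07%), and 1 higher, Rab1b (2.04%, against 4.18%).

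These tests bound the differences rather than show that they are absent. For dark minus light, the 95% interval lay within 0.5 of 0 on the log2 scale for 47 of 49 genes, all but Rab38 and Rab26. For ZT15 minus ZT3 it did so for 37 genes and for ZT21 minus ZT9 for 34. Within 0.25 of 0 it lay for 21, 3 and 4 genes.

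**Figure D4:**
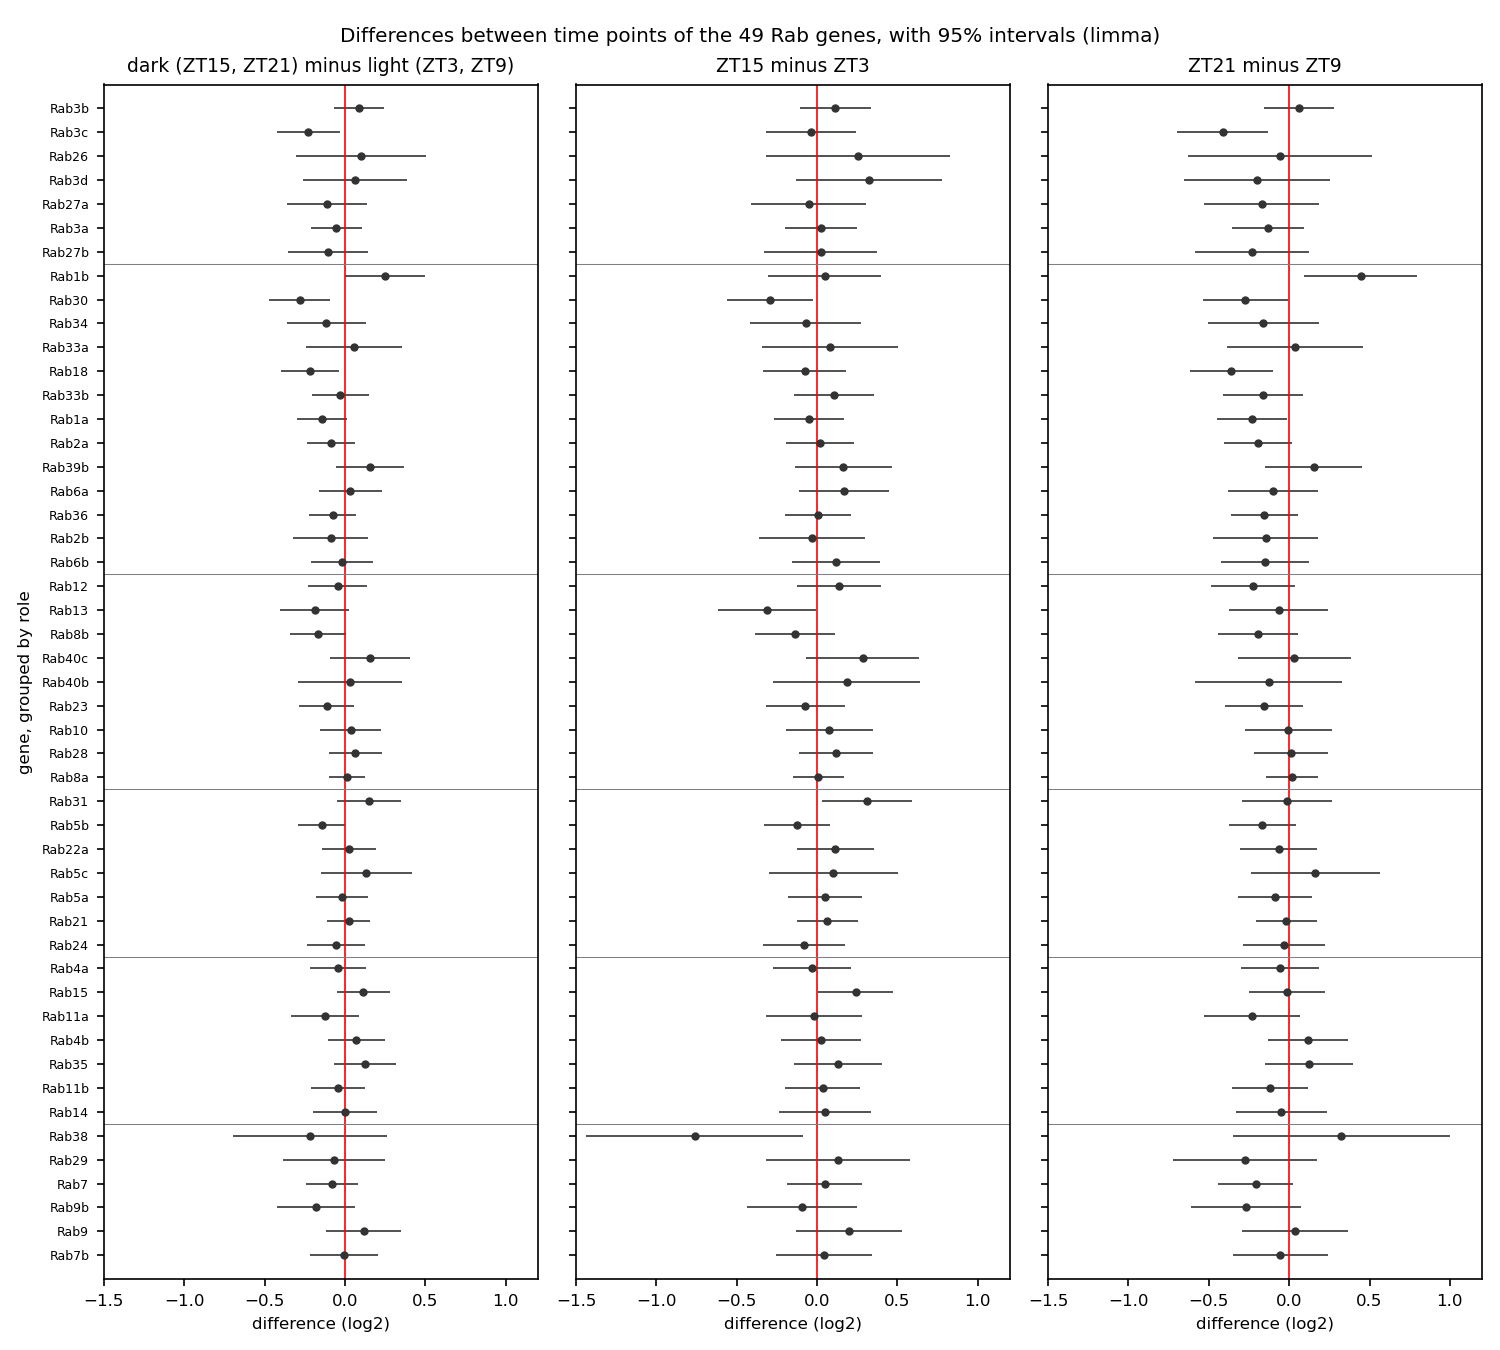
Difference of log2 intensity for each of the 49 Rab genes (rows, grouped by role) with its 95% interval from limma, for dark minus light, ZT15 minus ZT3 and ZT21 minus ZT9. The red line is no difference. Most intervals cross it, that of Rab38 is the widest, and in the last panel 37 of 49 points are to the left.

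Most Rab genes had a lower mean at ZT21 than at ZT9, by little. The difference was below 0 in 37 of 49 genes (75.5%, against 56.1% of all probe sets), and its median was -0.10 (all probe sets -0.02). By role, the median was -0.17 for regulated secretion, -0.15 for the endoplasmic reticulum and Golgi, -0.13 for late endosomes, -0.07 for traffic to the plasma membrane, -0.05 for recycling and -0.03 for early endosomes. The median over the 49 genes was -0.02 without ZT9 replicate 1 and 0.01 without the 4 brightest arrays, where only replicate 3 was left at ZT9. The medians of the other contrasts were -0.03 for dark minus light (all probe sets 0.01) and 0.05 for ZT15 minus ZT3 (all probe sets 0.05).

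Cell type markers differed beside it. All 7 neuronal markers were lower at ZT21 than at ZT9, with a median of -0.18, and their summed intensity was 49676 to 57970 at ZT9 and 42170 to 53689 at ZT21. Stmn2, a neuronal protein of microtubules, passed the F-test (adjusted p 0.195), with 12.08, 12.20 and 12.02 at ZT9 and 11.45, 11.54 and 11.78 at ZT21. The 7 microglial markers were all higher at ZT21, with a median of 0.27, and of the 7 astrocyte markers 1 was higher (median -0.09). The cortical excitatory markers ran the other way from the neuronal list, with 4 of 5 higher at ZT21 and a median of 0.13, although Neurod2, a transcription factor of these neurons and the 1 of them to pass the F-test (adjusted p 0.195), was highest at ZT9. Of the other lists, 0 of 5 striatal markers (median -0.16) and 0 of 3 choroid plexus markers (median -0.92) were higher at ZT21, and 3 of 7 oligodendrocyte markers (median -0.01) and 2 of 4 endothelial markers (median 0.07). Cldn5, a tight junction protein of endothelium, passed the F-test (adjusted p 0.060), with 8.58, 8.32 and 7.91 at ZT9 and 9.28, 9.27 and 9.43 at ZT21. None of the lists' genes passed the ZT21 against ZT9 contrast, and their part in the Rab differences was not tested.

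Probe sets of the same Rab gene often disagreed. Of the 49 genes, 30 had several probe sets with a mean log2 of at least 5, 100 in all over the family. In 8 of the 30 genes all probe sets were highest at the same time, and in 17 all gave the same sign for ZT21 minus ZT9, lower in 15 and higher in 2, Rab8a and Rab40c. Over the 100 probe sets, 72 were lower at ZT21 than at ZT9 and 47 were highest at ZT9. When the probe sets of a gene were averaged, 23 of 49 genes were highest at ZT9.

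In many of the 30 genes a probe set other than the brightest had the smallest p in the test over time, among them Rab4a, Rab10, Rab27b and Rab6a. Rab11b, Rab14, Rab2a and Rab2b, where this also held, are described here. One probe set of Rab11b, a Rab of recycling endosomes, passed the F-test with an adjusted p of 0.18, the only probe set of the 49 genes to do so. Its means were 5.96, 5.72, 5.75 and 5.41 from ZT3 to ZT21, while the brightest probe set of the gene had 11.34, 11.42, 11.37 and 11.30 (adjusted p 0.831) and another 6.74, 6.75, 6.74 and 6.88. Rab14, of the Golgi and endosomes, had 6 probe sets whose ZT21 minus ZT9 ran from -0.45 to 0.06, with the smallest adjusted p of 0.274. For Rab2a, of Golgi traffic, 6 probe sets ran from -0.47 to 0.05 (smallest adjusted p 0.288), and for its paralog Rab2b 5 probe sets ran from -0.46 to -0.15 (smallest 0.267). The brightest probe set, followed elsewhere, was not the one with the largest difference in any of these 4 genes. Which transcript ends the probe sets read was not analysed here.

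**Figure D5:**
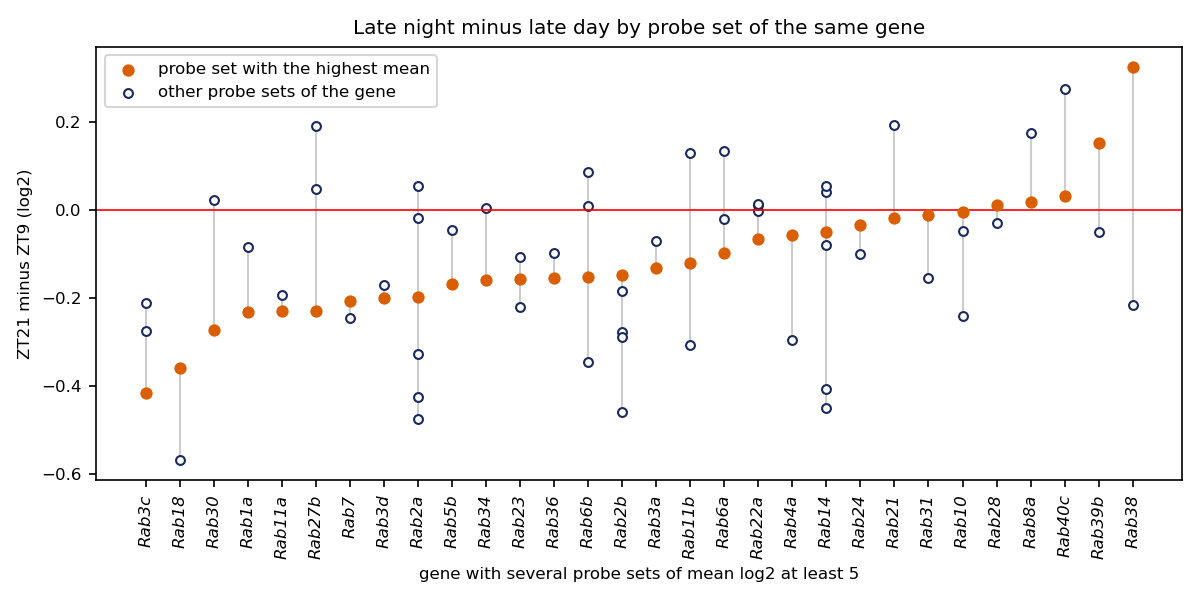
ZT21 minus ZT9 on the log2 scale for each probe set of the 30 Rab genes with several probe sets of mean log2 at least 5, ordered by the brightest probe set (filled). Open points are the other probe sets of the gene and a grey line joins them. The probe sets of Rab14 run from -0.45 to 0.06 and those of Rab38 from -0.22 to 0.33.

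The proteins that load, unload and read the Rab switch gave few calls too. Of 122 listed regulators and effectors 106 were tested, and 3 passed the F-test (2.83%, against the 1.93% above), 15 at an unadjusted p of 0.05 (14.2%, against 15.5% of all probe sets). None passed any of the 3 contrasts. Hps4, a subunit of the BLOC-3 exchange factor for Rab32 and Rab38, read 7.32, 7.13 and 7.06 at ZT3, 7.75, 7.43 and 7.71 at ZT9, 7.94, 7.73 and 8.29 at ZT15 and 7.96, 7.86 and 8.21 at ZT21. All arrays of the other times were above ZT3 (range 0.84, adjusted p 0.108), and 1 of 29 exchange factors passed. Rabgef1, which activates Rab5, had means of 8.26, 8.11, 8.33 and 8.89 from ZT3 to ZT21 (adjusted p 0.233), and Rab3il1, which acts on Rab3a, 6.92, 6.79, 6.68 and 7.13 (adjusted p 0.293).

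Of 33 GTPase-activating proteins 2 passed. Tbc1d24, a synaptic protein with a TBC domain, read 9.51, 9.36 and 9.31 at ZT3, 10.38, 9.94 and 9.73 at ZT9, 9.60, 9.70 and 10.07 at ZT15 and 10.10, 10.28 and 10.20 at ZT21, so that ZT3 lay below all other arrays (range 0.80, adjusted p 0.181). Tbc1d4, which acts on Rab10 in the insulin response, had means of 5.05, 5.29, 5.39 and 4.58 (adjusted p 0.195), with all ZT21 arrays below the rest. Sgsm1 followed with 10.12, 9.73, 10.39 and 10.09 (adjusted p 0.216).

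None of 37 effectors passed in limma, with 7 at an unadjusted p of 0.05, and none of 7 escort, GDI and prenylation genes, with 0 at that level. Of all probe sets, 15.5% were at that level. Lrrk2, a kinase that phosphorylates Rab8a and Rab10 and is recruited by Rab29, came closest among the effectors, with 8.45, 8.46 and 8.67 at ZT3, 7.88, 8.21 and 7.98 at ZT9, 8.68, 8.32 and 8.41 at ZT15 and 8.01, 8.12 and 8.27 at ZT21. Its ZT9 arrays were below all ZT3 and ZT15 arrays (range 0.50, adjusted p 0.205). Rilpl1, a partner of phosphorylated Rab8a, had means of 10.41, 10.42, 10.76 and 10.52 (adjusted p 0.254), and the motor Myo5b, which moves Rab11 endosomes, 7.72, 8.49, 7.82 and 7.90 (adjusted p 0.278). Chml and Chm, the escort proteins that present new Rabs for prenylation, had adjusted p-values of 0.438 and 0.49, and Rabggtb, the catalytic subunit of the prenylating enzyme, 0.505. The number of regulators called ranged from 0 to 10 when 1 array was left out, where 0.163% to 12.3% of all probe sets were called.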

How the data were processed

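RNA of single mice was measured on 12 arrays, and per the study's methods the replicates are separate mice. Values were deposited as intensity on a linear scale, which the authors had computed per probe set with GCRMA, and their MAS5 detection calls were not used here. Array quality limits precision, and intensities do not rank transcripts of different genes. Values were taken as log2, and of 45037 probe sets that are not controls the 24546 with the highest mean, the number the study kept, were tested (54.5%). A GEO annotation paired probe sets with symbols, and all 49 genes were found in RefSeq (GRCm38.p6).

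Tests used limma 3.58.1 in R 4.3.3 with 1 fit over all arrays, a moderated F-test over the 4 time points called at an adjusted p of 0.20, and 3 contrasts called at 0.05, two-sided, with Benjamini-Hochberg adjustment over all probe sets tested. Intervals are 95%. Tables were made with pandas 2.3.3 and numpy 2.4.6 in Python 3.11.15, and figures with matplotlib 3.10.9. The fit was tested on simulated data.

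The 12 genes with the smallest F-test p are given on every array, with up to 3 genes per role or regulator list by the same p, and all probe sets of a gene named for a difference, those of mean log2 at least 5. The members and lists were chosen with earlier results of these data known. Listed regulators and markers without a probe set of 1 symbol were not analysed here. Alternatives were other scalings, filters, offsets, variance models, probe sets and SAM with 100 permutations, each array left out, and the replicate number as a block.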

Additional observations from a re-analysis of the deposited data

How the results depend on the processing

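The 3 contrasts gave 0 Rab genes under each alternative run, except array weights, with 4 for dark against light (11.5% of all probe sets) and 9 for ZT21 against ZT9 (18.3%). The test over the 4 time points gave 3 Rab genes with quantile normalization, 1 with the 15000 brightest probe sets, 24 with array weights, 11 with SAM, and 0 to 5 with 1 array left out. The setting without the 4 brightest arrays, added after the data were seen, kept only replicate 3 at ZT9. Its count of Rab genes in this test is left out. Its count of regulators, listed below, is not interpreted for the same reason. Of all probe sets tested, 8.73% were called with quantile normalization, 8.87% of the 15000 brightest and 27.5% with SAM. These were 2144, 1330 and 6754 probe sets. With array weights 14718 were called (59.96%), against 473 with the settings of the report (1.93%). The share was 1.03% with arrays centred on the median, 0.431% with no filter and 0.322% without moderation. The regulator counts that follow are to be read beside these shares. Of regulators and effectors, with 3 with the settings of the report, 11 were called with quantile normalization, 1 with arrays centred on the median, 1 with no filter, 6 with the 15000 brightest, 66 with array weights, 0 without moderation, 23 with SAM, 21 without the 4 brightest arrays and 0 to 10 with 1 array left out.

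The number of Rab genes highest at ZT9, 30 with the settings of the report, was 15 with quantile normalization and 18 to 37 with 1 array left out. It was 9 without the 4 brightest arrays, where only replicate 3 was left at ZT9. The share was 63.3% with arrays centred on their median. Those lowest at ZT3, 22 with the settings of the report, were 10 with quantile normalization and 13 without the 4 brightest arrays. The median difference from ZT3 to ZT15 was -0.0505 with quantile normalization, and from ZT9 to ZT21 it was 0.0118 without the 4 brightest arrays and -0.16 to -0.0169 with 1 array left out. The cause was not tested. The replicate numbers were shared between time points in name only: arrays with the same number had deviations correlated by -0.50 to 0.49, and 3 of 12 arrays correlated best with their own number. With the replicate number as a block, the F-test called 0 Rab genes, 1 regulator and 91 probe sets in all. Protein sequences of the family were not used here. The standard error of a difference between time points had a median of 0.12 on the log2 scale over the Rab genes, with 3 arrays per time point.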
